A study of Bos taurus with 20 samples.

Results

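The genes described here encode the proteins of the cytosolic ribosome, measured in cattle skin where horns form on the skull. A probe was included when its name in the scanner files was that of a large or small subunit ribosomal protein, or its description named one, and mitochondrial ribosomal proteins and ribosomal protein kinases were left out. This gave 90 of the 21475 probes on the array, 47 by name and 43 by description alone, which stood for 87 of 19823 gene names. The brightest probe was kept for each gene. Of the 87 genes, 72 are textbook ribosomal proteins (42 of the large and 30 of the small subunit), 7 are paralogs and 7 are predicted gene models described as ribosomal proteins. The remaining gene, RPS19BP1, encodes a nucleolar protein that binds RPS19 and is no ribosomal protein itself. It was kept because its description met the rule.

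RNA came from biopsies holding epidermis, dermis and dermal connective tissue of 11 cattle: 4 polled animals, which grow no horns, 4 scurred animals, whose rudimentary horns are not fixed to the skull, and 3 horned animals. RNA samples were hybridised in pairs on 20 arrays with both colours. There were 1 male and 3 females among the polled, 3 males and 1 female among the scurred, and 2 males and 1 female among the horned animals. On chips 1 to 4, 4 arrays per chip set an animal of each horn type against the other two. Chip 5 compared the horn site of polled 3 and of scurred 2 with skin from elsewhere on the skull of the same animal, here called the control site. Animals are numbered by chip, and horned 2 served on chips 2 and 4. No breed, age or genotype is given in the labels used here. On every one of these chips the sexes of the polled and scurred animals differed, so horn type and sex overlap.

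The ribosome has a small subunit that reads the mRNA and a large subunit that joins amino acids, and each protein is present once per ribosome apart from those of the stalk. The mRNAs of these proteins are among the most abundant of a cell, and most begin with a run of pyrimidines through which the mTOR pathway sets their translation together. For that reason the mRNAs are often taken as steady references, and their joint level as a sign of growth. Keratinocytes, hair matrix cells, fibroblasts, vessels and muscle all express them, so a skin biopsy gives the sum over its cells. In such bulk RNA, fewer cells of a type and less RNA per cell cannot be told apart.

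Each of the 90 probes was 60 bases long, with a G+C content from 26.7% to 70.0% and a mean of 43.9%, against 43.8% over all probes. The hexamer AATAAA, the common polyadenylation signal, was found in 28 of the 90 probes (31.1%) and in 11.8% of all probes on the array, while its reverse complement TTTATT was found in 2 (2.2%) and in 3.9%. The motif was searched on both strands and the match is a description of the letters alone. The sequences shown first belong to RPL15, whose pair of measured probes gave very different values, and to GJA4, a gap junction gene whose probe shares a run with one of them. Capitals mark the shared run of 31 bases, and it reads alike from 5′ to 3′ in both. No other member probe shared a run of more than 16 bases with any probe on the array.
RPL15 brighter probe: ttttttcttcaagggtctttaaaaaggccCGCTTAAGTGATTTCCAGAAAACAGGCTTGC
GJA4 probe: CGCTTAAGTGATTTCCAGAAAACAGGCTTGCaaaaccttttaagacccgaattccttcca
RPL15 dimmer probe: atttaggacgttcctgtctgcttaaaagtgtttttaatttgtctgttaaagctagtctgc
The next sequences are those of the 5 genes that varied most between animals, of RPS20, among those that varied least, and of RPL22L1, the paralog with the lowest p of all members in polled against horned animals. Capitals mark AATAAA.
RPL4: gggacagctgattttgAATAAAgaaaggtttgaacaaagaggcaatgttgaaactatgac
RPL3L: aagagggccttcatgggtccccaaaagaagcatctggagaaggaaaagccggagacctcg
RPL27A: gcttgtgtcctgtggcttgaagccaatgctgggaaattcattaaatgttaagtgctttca
RPS26: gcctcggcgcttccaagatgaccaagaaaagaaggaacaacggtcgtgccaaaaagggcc
RPL37A: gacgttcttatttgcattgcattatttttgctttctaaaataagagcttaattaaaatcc
RPS20: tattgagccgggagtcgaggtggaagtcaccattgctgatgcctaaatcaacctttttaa
RPL22L1: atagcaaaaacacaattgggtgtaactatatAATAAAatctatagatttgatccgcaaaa

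The probes of these genes were among the brightest on the array. Of the 100 brightest probes 46 were members, and of the 200 brightest 54. Of 73 probes with a mean log2 intensity of 16 or more, 39 were members. A loess curve, which sets the typical log ratio at each brightness to 0, is therefore drawn in that range to a large part over the ribosomal probes themselves, and the main family-wide values are also given with arrays centred on their median alone and, for the medians and the spread, with the curve drawn without the members. None of the 3600 member spots was saturated and 1 was flagged as uneven. After a filter for signal well above background in at least 3 of 11 animals, 85 of the 87 genes were tested. RPL10L, a paralog of RPL10 known from testis, and RPS27A, a small subunit protein made as a fusion with ubiquitin, were not well above background in any of the 11 animals. RPL3L passed in 10 of 11 animals and every other tested member in 11 of 11.

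In polled against horned skin, no ribosomal protein gene passed the threshold. The fitted differences of the 85 members, with chip as a block and sex as a term, had a median of −0.011 on the log2 scale and quartiles of −0.112 and 0.054. Of the 85, 39 stood higher and 46 lower, and 1 had an unadjusted p under 0.05 (1.18% of members, against 9.3% of the 15712 probes tested). Across all probes 1 passed an adjusted p of 0.05 (0.00636%). The lowest p was that of RPL22L1, a paralog of the large subunit protein RPL22. It stood at −0.07, −0.41, −0.37 and −0.26 in polled 1 to 4, each against its chip's horned animal, lower in 4 of 4. The fitted difference was −0.28 (SE 0.111, p 0.0365, adjusted p 0.524, limma). RPL22, its parent gene, was also lower in 4 of 4 animals, from −0.37 to −0.09, with a fitted difference of −0.21 (SE 0.17, adjusted p 0.725).

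Among other members lower in 4 of 4 polled animals, RPL34 had a fitted difference of −0.29 (SE 0.178, adjusted p 0.628) with values from −0.50 to −0.09. RPL9 stood at −0.21 (SE 0.172), and LOC613340, a model described as RPS3A-like, at −0.22 (SE 0.192). RPS15A at −0.14, RPL30 at −0.16 and RPL8 at −0.10 completed the 8 lowest p-values with 1 sign in all 4 animals. In all, 5 members were higher in 4 of 4 polled animals (5.88%, against 14.2% of all probes tested) and 10 were lower (11.8%, against 13.1%). Both shares were below those of the array as a whole with loess. With median centring 62 members were lower in 4 of 4 (72.9%, against 20.4%) and 1 was higher (1.18%, against 10.6%). Without horned 2 the members' median was 0.080, with 55 higher and 30 lower, and without polled 2 it was −0.121, with 23 and 62. The 3 highest fitted differences were those of RPL3L at 0.87 (SE 0.76), RPL27A at 0.46 (SE 0.385) and RPL35, a protein at the exit of the peptide tunnel, at 0.41 (SE 0.203, adjusted p 0.573). The lowest were RPL4 at −0.98 (SE 0.515) and RPS26 at −0.52 (SE 0.355), and each rested on 1 or a few animals, as their values by animal below show.

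In scurred against horned skin the family stood lower on balance with either scaling, and no single member passed. The median of the 85 members was −0.098, against 0.006 over all 15712 probes, with 20 members higher and 65 lower. None passed the threshold, nor did any of all probes (0%), and the lowest adjusted p of a member was 1 (limma). With an unadjusted p under 0.05 there were 2 members (2.35%, against 3.73% of all probes). By animal, the median of the members stood at −0.212, −0.118, 0.130 and −0.223 in scurred 1 to 4. Scurred 3 was thus on the other side of 0 from the other scurred animals. Without scurred 1 the fitted median was −0.025 and without scurred 3 it was −0.165.

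The members with the lowest p in that comparison were CB168716, a transcript described as similar to RPL35A, and RPS6, the small subunit protein phosphorylated by S6 kinase. CB168716 stood at −0.75, −0.34, −0.08 and −0.43 in scurred 1 to 4, with a fitted difference of −0.39 (SE 0.141, p 0.0282). RPS6 stood at −0.32, −0.38, −0.10 and −0.53, with a fitted difference of −0.30 (SE 0.126, p 0.0482). Both were lower in 4 of 4 animals, and neither passed after adjustment (1, limma). RPL5, which binds the smallest ribosomal RNA and can hold MDM2, was at −0.27 (SE 0.143) and lower in 4 of 4. LOC616464, a model described as RPL37, was at −0.30, RPL15 at −0.33, RPS14 at −0.19 and RPS20 at −0.16. RPS27L, a paralog of RPS27 known as a p53 target, was higher in 4 of 4 scurred animals, from 0.09 to 0.60, with a fitted difference of 0.29 (SE 0.138, p 0.0758). In all, 2 members were higher in 4 of 4 scurred animals (2.35%, against 8.49% of all probes) and 10 were lower (11.8%, against 9.71%). With median centring these counts were 0 and 1 (0% and 1.18%, against 2.94% and 6.92% of all probes). The extremes of the fit were RPL4 at 0.80 (SE 0.49), RPL3L at 0.46 and RPL32 at 0.41 above 0, and CB168716, RPS3A at −0.34 and RPL15 below it.

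Scurred and polled animals share the horned animals as the reference on each chip and were compared through the same fit. The median of members was −0.079, with 23 higher and 62 lower, against −0.008 over all probes. Its direction rested on polled 2, without which the median was 0.063 with 55 higher and 30 lower. With median centring it was 0.066 with 61 and 24 (71.8% higher, against 44.1% of all probes). No member and no probe passed (0%), and 2 members had an unadjusted p under 0.05 (2.35%, against 6% of all probes). These were RPL4 at 1.79 (SE 0.5, p 0.0088, adjusted p 0.792) and RPL22L1 at 0.32 (SE 0.107, p 0.0205, adjusted p 0.793, limma). RPL4 builds part of the wall of the peptide tunnel. RPS6 stood at −0.26 (SE 0.128), RPS27 at −0.45 (SE 0.232), CB168716 at −0.28, RPS14 at −0.23, FAU at −0.30 and RPS27L at 0.23. FAU is the precursor of the small subunit protein next to the mRNA entry. RPL32 at 0.45 (SE 0.339), and RPL27A at −0.46 and RPL3L at −0.41, were the other extremes.

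**Figure D1:**
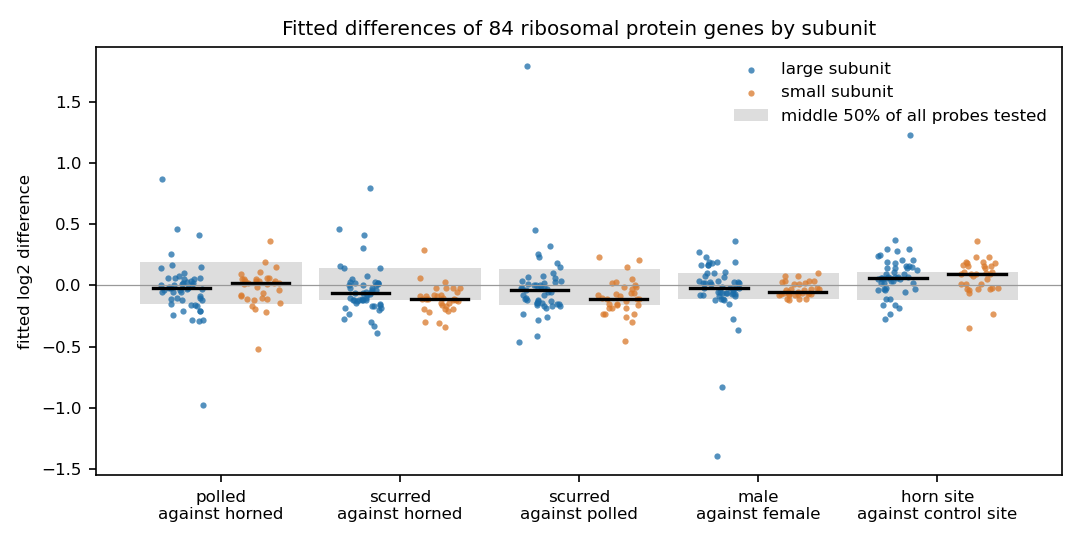
Fitted log2 differences (y axis) of the 51 large subunit and 33 small subunit genes tested in each of the 5 comparisons (x axis). Each point is a gene, black bars are medians and grey boxes span the middle 50% of all probes tested. Values are with loess, and with median centring the family turned between scurred and polled, by sex and by site. RPL4 in scurred against polled (1.79) and RPL3L by sex (−1.39) and by site (1.23) lie far outside.

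Between the sexes no member passed and none had an unadjusted p under 0.05 (0%, against 2.09% of all probes; 0.0191% of all probes passed the adjusted threshold). The median difference of males from females was −0.027, with 35 members higher and 50 lower. It was 0.009 without polled 1, 0.005 without horned 2 and 0.003 without horned 3, and −0.146 without polled 2. RPL3L had the lowest p, at −1.39 (SE 0.659, p 0.0722, adjusted p 1, limma). RPL4 was at −0.83 (SE 0.447), and it was at 0.172 without polled 2, the only polled male. RPL39, one of the smallest ribosomal proteins, was the highest at 0.36 (SE 0.188), followed by RPL27A at 0.27 (SE 0.334) and LOC514954, a model described as RPL41, at 0.23 (SE 0.129). RPL14 stood at 0.19, RPL36AL at 0.17, LOC616464 at 0.19, RPL15 at −0.27 and RPL32 at −0.36.

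Horn site and control site of the same animal were compared in 2 animals. The median of members was 0.068, with 62 higher and 23 lower, against −0.009 over the 15290 probes tested. It was 0.135 in polled 3 and 0.012 in scurred 2, so the shift came from polled 3, in which 70 of 85 members were higher at the horn site. No member and no probe passed (0%), and 1 member had an unadjusted p under 0.05 (1.18%, against 4.71% of all probes). That was RPS19BP1, at −0.45 in polled 3 and −0.32 in scurred 2 (fitted −0.39, SE 0.121, p 0.0447, adjusted p 0.962, limma). In both animals 40 members were higher (47.1%, against 24% of all probes) and 11 were lower (12.9%, against 26.5%). Beside RPL3L, described below, those higher in both with the lowest p were RPL10 at 0.37 (SE 0.123), LOC613340 at 0.36, RPL26 at 0.30, RPL17 at 0.30, RPL9 at 0.28 and RPS26 at 0.23. RPS27 at −0.35 (SE 0.147) was lower in both. RPL22L1 was at −0.27, from −0.59 in polled 3 and 0.04 in scurred 2. With arrays centred on their median, where all probes had a median of −0.154, the members' median was −0.318 with 4 higher and 81 lower. With that centring 74 members were lower in both animals (87.1%, against 44.4% of all probes) and 3 higher (3.53%, against 19.5%). RPL10, LOC613340, RPL26, RPL17, RPL9 and RPS26 were then all below 0.

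The level of the whole family in an animal depended on how arrays were scaled. With loess, the members' medians by animal lay between −0.223 and 0.130, as given for the scurred animals, and at 0.026, −0.015, 0.016 and −0.137 in polled 1 to 4. With each array centred on its median, they were −0.693, −0.260, −0.190 and −0.425 in polled 1 to 4 and −0.421, −0.639, 0.656 and −0.578 in scurred 1 to 4. With the curve drawn without the members, they were 0.039, −0.014, 0.029 and −0.182 in polled 1 to 4 and −0.314, −0.139, 0.165 and −0.282 in scurred 1 to 4. With median centring 7 of the 8 animals were lower than the horned animal on their chip, and scurred 3 was higher in 82 of 85 members. The 1572 brightest probes moved in the same way, with medians from −0.558 to 0.497, so this was shared with other bright probes. In the fit, the members' median became −0.286 in polled against horned (8 higher and 77 lower) and −0.225 in scurred against horned (10 and 75). It became 0.066 in scurred against polled (61 and 24) and 0.164 in males against females (79 and 6). All probes then had medians of −0.03, −0.06, −0.029 and 0.058, with 45.4%, 39%, 44.1% and 63.6% higher. Of the members, 9.41%, 11.8%, 71.8% and 92.9% were higher. The direction of the family between scurred and polled animals, between the sexes and between the sites therefore turned with this choice, while scurred against horned stayed below 0. With the loess curve drawn without the member probes, the medians were −0.013, −0.127, −0.102, −0.035 and 0.096 in the order in which the 5 comparisons were described.

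**Figure D2:**
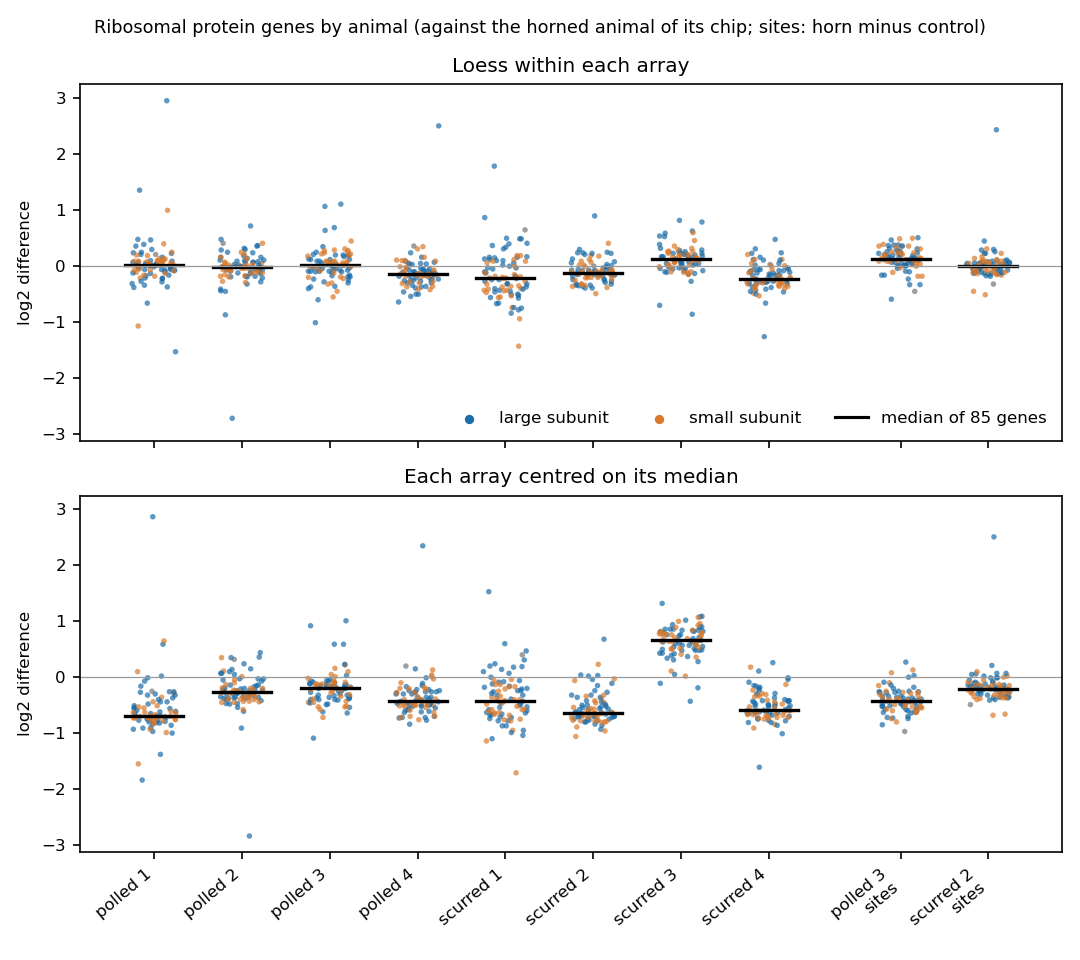
Log2 differences (y axis) of 85 ribosomal protein genes in each polled and scurred animal against the horned animal on its chip, and of horn site against control site in polled 3 and scurred 2 (x axis), with loess (upper) and with median centring (lower). Points are genes coloured by subunit (grey, RPS19BP1) and black bars are medians. The bars lie from −0.223 to 0.135 above and from −0.693 to 0.656 below.

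Large and small subunit genes were set against each other within an animal, as a description with no test. With loess, the median of the large subunit minus that of the small subunit lay between −0.107 and 0.147 in the 8 animals, and by array between −0.163 and 0.070, with 8 arrays above 0 and 12 below. With median centring it lay between −0.059 and 0.123 by animal and between −0.237 and 0.081 by array, with 3 arrays above 0 and 17 below. The values by array are red over green, with no dye coefficient. Their sign depends on which RNA was labelled red and gives no direction between horn types. With loess the widest gap, 0.147, was in scurred 1, where large subunit genes had a median of −0.119 and small subunit genes of −0.267. In the fits, the large minus small median was −0.038 in polled against horned, 0.051 in scurred against horned, 0.065 in scurred against polled, 0.029 by sex and −0.030 by site. With median centring these were 0.007, 0.051, 0.013, 0.005 and 0.017, so the sign turned in polled against horned and by site. In scurred against horned with loess, 30 of 33 small subunit genes stood below 0 (27 of 29 textbook genes). So did 35 of 51 large subunit genes and 7622 of all 15712 probes. Genes measured in the same animals are no replicates of each other. Without scurred 1 the large minus small median in that comparison was 0.002 in place of 0.051. By role, the stalk proteins RPLP0, RPLP1 and RPLP2 had a median of 0.149 in polled and 0.005 in scurred against horned animals. The tunnel exit proteins (6 genes with RPL35) had medians of −0.017 and −0.063, and the 8 measured genes known from Diamond-Blackfan anaemia 0.022 and −0.129.

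How much the members varied between animals depended on the scaling. With loess, the SD of a gene's 8 differences from the horned animal had a median of 0.233 over the 85 members, against 0.315 over all probes tested and 0.363 over the 1572 brightest probes. A range over the 8 animals of more than 1 log2 unit was found in 12 members (14.1%), in 46% of all probes and in 55.2% of the 1572 brightest probes. With the curve drawn without members it was found in 15 members (17.6%, against 46%), and with median centring in 78 (91.8%, against 60.8% of all probes). Among probes with a mean log2 intensity of 16 or more, the median SD was 0.196 in the 39 members and 0.569 in the other 34. With the curve drawn without members these were 0.232 and 0.558, and with median centring 0.468 and 0.724. Over all 85 members the order turned with median centring, at 0.467 against 0.384 for all probes. With loess 10 of 51 large subunit genes exceeded 1 log2 unit, and of small subunit genes 2 of 33.

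**Figure D3:**
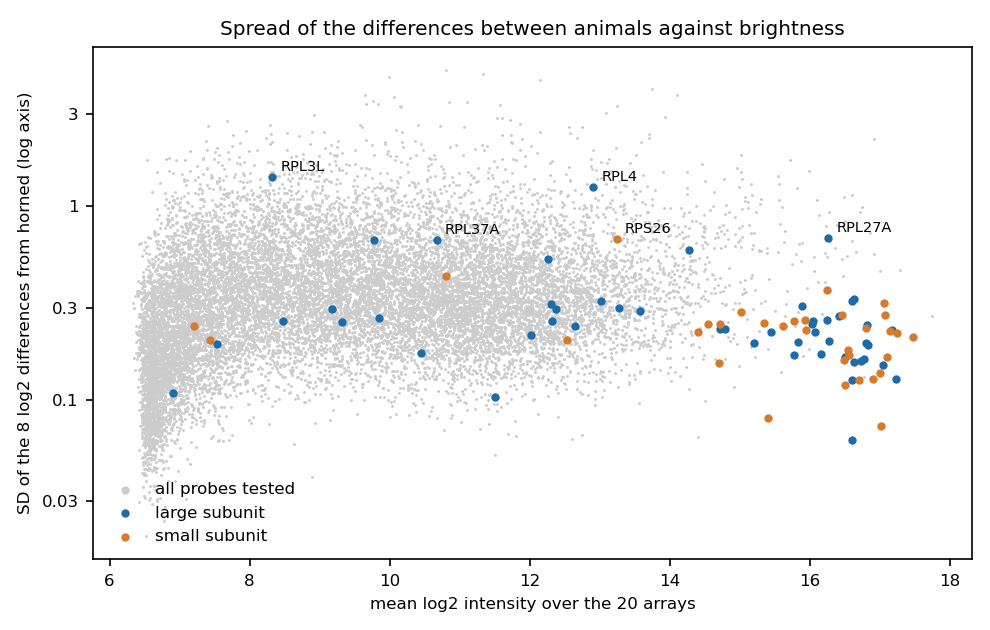
SD of the 8 log2 differences from the horned animal of the chip (y axis, log scale) against the mean log2 intensity over the 20 arrays (x axis) for all 15712 probes tested (grey) and for the member genes by subunit. Values are with loess, under which the members' median of 0.233 lies below that of all probes, and with median centring it lies above. The 5 named genes, RPL3L, RPL4, RPL27A, RPS26 and RPL37A, had SDs from 0.669 to 1.41.

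RPL8, a protein near the peptidyl transferase centre, had the lowest SD of the 8 differences in the family with loess. It stood at −0.12, −0.09, −0.10 and −0.21 in polled 1 to 4 and at −0.05, −0.18, −0.04 and −0.17 in scurred 1 to 4, below the horned animal in 8 of 8 (SD 0.0619). That was the lowest SD among the 1572 brightest probes with loess. Horned 2 was the reference for polled 2, polled 4, scurred 2 and scurred 4, so the 8 values are not independent. With median centring RPL8 stood at 0.57 in scurred 3, above its horned animal. RPS20 (SD 0.0738), RPS21 (0.0803) and RPL28 (0.109) were also among the 5 lowest. With median centring RPL8 ranked 27 of 85 and RPL28 ranked 1. With the processed signals of the scanner software RPL28 ranked 70, with an SD of 0.325. Its probe was dim, at a mean log2 intensity of 6.9. Over the levels of the 11 animals, also with loess, RPL8 had an SD of 0.14, against 0.0798 for RPS2. The order of the steadiest members thus belongs to the scaling and to the measure.

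Apart from the shifts shared by the family, RPL3L, RPL4, RPL27A, RPS26 and RPL37A had the greatest spread with loess. With the dyes exchanged, the difference of a polled from a horned animal in the 5 genes of greatest spread moved by at most 0.74, in RPL27A. Levels are given below as log2 intensities of 1 probe, comparable between RNA samples but not between genes. An animal other than horned 2 lay on 1 chip, apart from the arrays of chip 5, so animal and chip cannot be told apart except within a chip. RPL4 had a level of 10.77 in horned 1, 10.77 in polled 1 and 11.05 in polled 2, of 12.43 in scurred 1, and of 13.28 to 14.18 in the other 7 animals. Low and high animals were found in every horn type but scurred, whose lowest was the intermediate value of scurred 1. On chip 2 polled 2 stood at −2.72 against horned 2, at −2.54 and −2.95 in the pair of dye orders, while on chip 1 scurred 1 stood at 1.79 above horned 1. The 1.79 fitted between scurred and polled animals became 0.724 without polled 2. The control sites of polled 3 and scurred 2, at 13.04 and 13.36, lay close to the horn sites of the same animals at 13.37 and 13.28.

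RPS26, a protein at the mRNA exit, was lowest in scurred 1 at 11.92 and polled 1 at 12.31, and lay between 12.95 and 13.94 in the other 9 animals. On chip 1 both were below horned 1, by −1.43 and −1.07. RPL27A had its highest levels in polled 1 at 16.93, scurred 4 at 16.73 and polled 2 at 16.67, and its lowest in horned 1 at 15.69. Polled 1 stood at 1.36 above horned 1, at 1.54 and 1.12 by dye order. RPL37A was low in polled 1 alone, at 9.59, and lay between 10.19 and 11.05 in the other 10 animals. Polled 1 stood at −1.53 against horned 1, at −1.63 and −1.53 by dye order. RPL32, next in spread at 0.666, was highest in polled 3 at 10.89 and in the control site of that animal at 10.63, and lowest in polled 1 at 8.66. The animals that stood apart were thus not the same for each gene, although polled 1 was at an extreme of RPL4, RPL27A, RPL37A and RPL32.

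**Figure D4:**
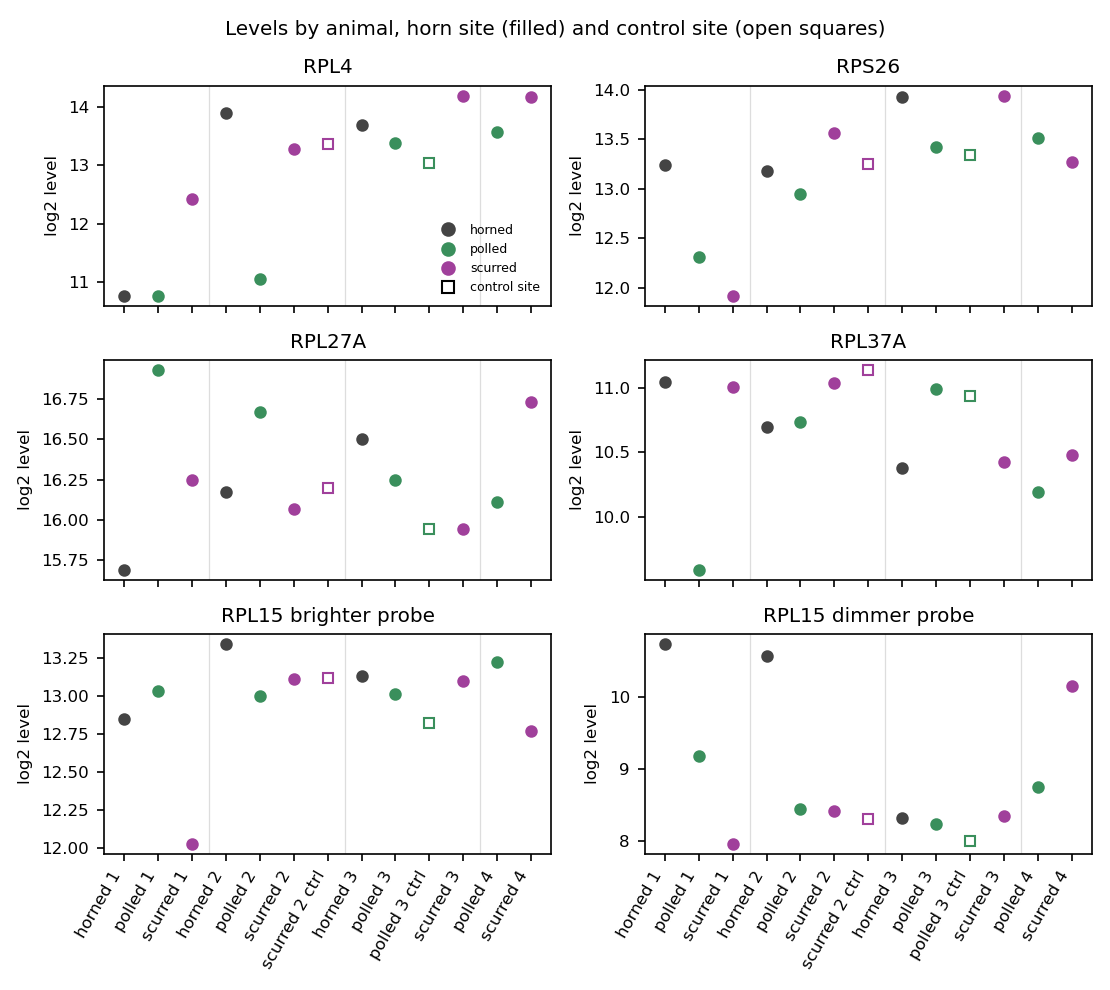
Log2 level (y axis) of RPL4, RPS26, RPL27A, RPL37A and both RPL15 probes in 13 RNA samples ordered by chip (x axis), with grey lines between the animals of different chips. Circles are horn sites and open squares control sites, coloured by horn type. Single animals stand apart, such as polled 2 in RPL4 (11.05) and polled 1 in RPL37A (9.59), and control sites lie near the horn site of the same animal.

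RPL15, a large subunit protein, had a pair of measured probes that disagreed. The brighter one, used for the gene, had levels from 12.03 in scurred 1 to 13.34 in horned 2. The dimmer one was at 10.74 in horned 1, 10.58 in horned 2 and 10.15 in scurred 4, and between 7.96 and 9.18 in the other 8 animals. By fit, the dimmer probe gave −1.26 in polled and −1.14 in scurred against horned animals (p 0.0815 and 0.0959; adjusted p 0.570 and 1, limma), and the brighter one −0.15 and −0.33. The values by animal of the brighter probe were 0.24, −0.32, −0.06 and −0.10 in polled 1 to 4 and −0.84, −0.13, −0.04 and −0.46 in scurred 1 to 4. Those of the GJA4 probe, which shares the 31 bases shown in capitals, were 0.28, −0.50, 0.01 and −0.19, then −0.94, −0.19, −0.27 and −0.52, close to the RPL15 values in every animal. Which transcript either probe measured was not tested. RPS15A had 3 probes, of which 1 was not well above background in any animal. The other pair gave −0.14 and 0.05 in polled against horned animals and −0.09 and −0.16 in scurred against horned animals.

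Among the paralogs, 6 of 7 were measured. RPL26L1 stood at 0.06 in polled and 0.16 in scurred against horned animals, beside 0.14 and 0.02 for RPL26. RPL36AL stood at 0.06 and −0.02, beside −0.17 and −0.14 for RPL36A. RPL7L1, a protein of large subunit assembly, stood at −0.05 and 0.01, beside −0.02 and −0.05 for RPL7. RPS27L stood at 0.05 and 0.29, beside 0.36 and −0.09 for RPS27. None of these passed.

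RPL3L, the muscle paralog of RPL3, differed most of all members. Its level was 12.31 in polled 4, 10.12 in polled 1, 9.55 in scurred 2, 8.97 in horned 2 and 8.28 in polled 2, and between 6.73 and 7.92 in the other 6 animals. In scurred 2 the control site was at 6.97, so that the horn site stood 2.44 higher, and in polled 3 the sites differed by 0.03. RPL3 itself stayed at 0.06 (polled) and −0.07 (scurred) against horned animals. The markers of skeletal muscle were highest in much the same animals as RPL3L, though the sizes of the differences were not alike. Of 20 markers on the list 15 were measured, and for 12 of the 15 the 5 highest animals were the same as for RPL3L (for the other 3, 4 of the 5). CKM, muscle creatine kinase, was at 13.34, 10.73, 10.24, 9.69 and 9.31 in those animals in the same order and between 6.42 and 8.76 in the rest. TNNT3, a fast muscle troponin, was at 10.30 in polled 4 and between 6.42 and 7.98 elsewhere. Against the horned animal, the markers' median was 4.47, −0.96, 1.61 and 2.10 in polled 1 to 4 and 3.43, 0.12, 3.29 and −2.67 in scurred 1 to 4. RPL3L stood at 2.96, −0.45, 0.21 and 2.51, then at 0.37, 0.90, 0.82 and −1.26. In scurred 1 and scurred 3 the markers were thus far higher while RPL3L rose little. At the horn site the markers' median stood 3.81 higher in scurred 2 and 0.39 higher in polled 3. These names were looked at after the values were seen, and the part of muscle in the biopsies in the RPL3L result was not tested.

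**Figure D5:**
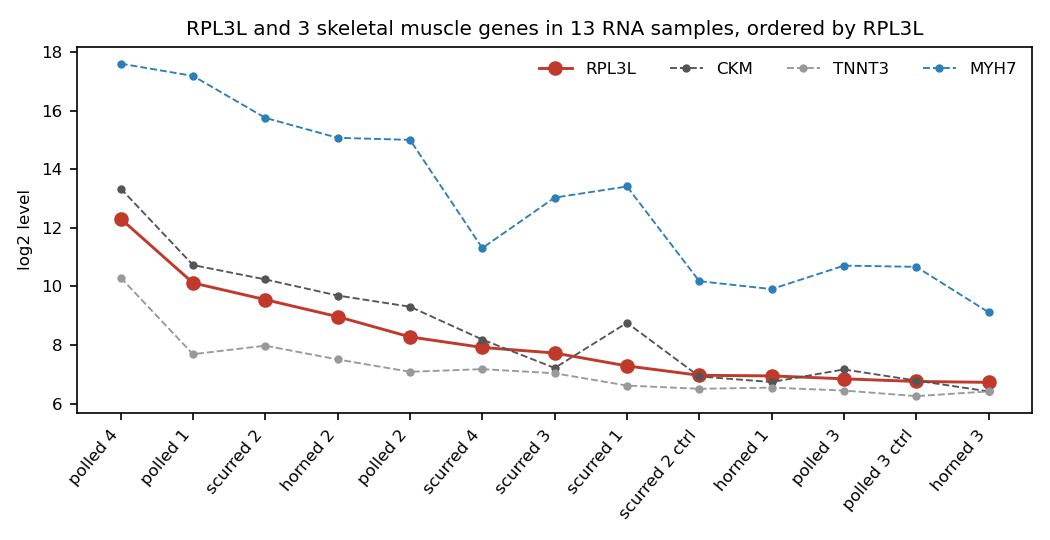
Log2 level (y axis) of RPL3L and of the muscle genes CKM, TNNT3 and MYH7 in 13 RNA samples ordered by RPL3L (x axis). Heights are not comparable between genes. All 4 were highest in polled 4, and the control site of scurred 2 lies below its horn site in each.

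Other genes of translation were described beside the family, and no gene of these lists passed in any of the 5 comparisons. Of 24 translation factors whose mRNAs begin with the same pyrimidine run, 22 were measured, with medians of 0.081 in polled and −0.045 in scurred against horned animals and −0.121 between scurred and polled. By animal they stood at 0.02, 0.09, 0.25 and −0.10 in polled 1 to 4 and at −0.37, 0.07, 0.09 and −0.16 in scurred 1 to 4, on the other side of 0 from the ribosomal genes in polled 2 and scurred 2. Initiation factors without that run (23 of 27 measured) had medians of 0.074, 0.111 and −0.021 in the same comparisons. Genes of ribosome assembly (38 of 40) had −0.103, −0.054 and 0.046, and at the horn site −0.195, with 3 higher and 35 lower, where the ribosomal proteins stood at 0.068 with loess and at −0.318 with median centring. The 71 measured mitochondrial ribosomal proteins (of 76 names) had medians of 0.072, 0.031 and −0.049, and −0.11 between the sites. MYC, the growth regulator that drives these genes in many tissues, ranged from −1.02 to 1.99 by animal against horned.

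Markers of other cell types moved between animals too, some lists widely and others little. The 18 measured keratinocyte markers had medians of 1.904 in polled and 1.742 in scurred against horned animals, from −0.27 to 4.10 by animal, with 17 of 18 higher in both. The highest median by animal, 4.10, was in scurred 1. The 19 fibroblast markers had medians of −0.900 and 0.083, from −1.34 to 0.53 by animal, and the 5 red cell markers 1.699 and 2.118. The 14 macrophage markers had medians of −0.476 and 0.281, from −1.58 to 1.32 by animal. In polled against horned 13 of the 14 were lower and 1 was higher, at 1.78. That 1 and 2 of the lower markers had an unadjusted p under 0.05 (limma). Of the 14, 1 passed the threshold, and its direction is not given here. The list median by animal ran from −0.09 to 2.93 for the 7 melanocyte markers and from −0.04 to 2.40 for the 11 hair follicle markers. For the 12 smooth muscle markers it ran from −1.81 to 0.56. For the 12 measured lymphocyte markers this median ran from 0.25 to 0.57. For the 7 adipocyte markers it ran from −0.59 to 0.07, and for the 11 endothelial markers from −0.71 to 0.46. The lymphocyte markers had fitted medians of 0.394 in polled and 0.429 in scurred against horned animals. In each comparison 6 of the 12 had an unadjusted p under 0.05 by limma (against 9.3% and 3.73% of all probes). None of the 12 passed. The part of any of these marker lists in the ribosomal values was not tested.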

How the data were processed

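Total RNA of 11 animals was amplified and labelled for 2-colour Agilent arrays, per the labels' protocols. The deposited scanner files hold each spot's mean and background intensity in both dyes, and processed intensity values that per the file headers were background subtracted and dye normalized. The deposited series values are the log10 ratio of processed signals, with the sign turned on arrays of exchanged dyes and no exact centring on 0, and served after conversion to log2 as an alternative. The submitters' processing notes give Feature Extraction 9.5.1 as the scanner software. Per channel, 62.24% to 73.75% of spots were well above background and at most 2 per array were saturated. The number of animals limits the precision, and p-values cover the spread between these animals.

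Here spot means were background corrected by normexp with an offset of 50, then loess was run within arrays, in limma 3.58.1 under R 4.3.3, and flagged spots (0.0154%) were left out. An RNA counted as above background when at least 50% of its spots were, and probes were tested when 3 of 11 animals (15712 probes), or 2 of the 4 RNA samples of chip 5 (15290), met this. Arrays were reduced to 1 value per animal with a dye coefficient. On chips 1 to 4 limma was fitted over all probes with chip as a block and terms for horn type and sex. Chips 2 and 4, linked by horned 2, formed 1 block. This left 5 residual degrees of freedom, and the fit of the sites left 1. P-values are two-sided and adjusted by Benjamini-Hochberg over all probes, with a threshold of 0.05. Same-chip polled and scurred animals deviated from their group means with correlations of 0.239, 0.289, 0.425 and −0.0824 on chips 1 to 4, and a shared chip is stated in the labels. Exchanged dyes gave r from −0.948 to −0.672 across all probes. Over the members alone, r was weaker, at −0.789, −0.723, −0.49 and −0.418 for the polled and horned pairs of chips 1 to 4. Levels come from channels taken separately after Aquantile scaling.

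Names were taken from the files or from the RefSeq table of ARS-UCD2.0, with no coordinates. Of 21475 probes, 10098 were named by gene identifier, 3413 by accession, 307 by symbol, 48 by synonym and 2615 by the human gene in the description, and 4994 kept the file's name. The named genes are, per comparison, the 8 lowest p with 1 sign in every polled or scurred animal (for sex, any sign), the 3 highest and 3 lowest differences, the 5 members of most and of least spread, paralogs with their parents, and any member past the threshold. RPL32, MYC, CKM and TNNT3 in the spread and muscle accounts were added after their values were seen. Members and lists were chosen with earlier results of these data known. The fits were tested on simulated data. Some items are not reported here.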

Additional observations from a re-analysis of the deposited data

How the results depend on the processing

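No ribosomal protein gene passed the threshold in any of 125 alternative counts, which covered scaling, filters, covariates, probe choice and each chip or animal left out. With median centring the members' median was −0.286 in polled against horned, 0.066 in scurred against polled, 0.164 by sex and −0.318 by site, and the large minus small median by site was 0.017. The cause was not tested. With channels taken separately and no replicate block for the chip, the members' medians were −0.011, −0.097, −0.077 and −0.016 in the 4 comparisons of chips 1 to 4, and the block changed no call of a member. With a chip or animal left out, the members' median ran from −0.141 to 0.080 (−0.121 without polled 2) in polled against horned, from −0.188 to −0.017 in scurred against horned, from −0.135 to 0.072 in scurred against polled and from −0.169 to 0.009 by sex. By site it was 0.012 without polled 3 and 0.135 without scurred 2, and the large minus small median by site ran from −0.012 to 0.051. The large minus small median ran from −0.051 to 0.002, from 0.002 to 0.118, from 0.009 to 0.098 and from −0.024 to 0.051 in the comparisons of chips 1 to 4.

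Of 1328 alternative values of named genes, 1308 kept their direction and none passed an adjusted p of 0.05 (lowest 0.364, limma). With median centring the site difference was −0.067 for RPL10, −0.052 for LOC613340, −0.132 for RPL26, −0.133 for RPL17, −0.153 for RPL9 and −0.158 for RPS26. In polled against horned, RPL8 ran from −0.171 to 0.038 with an animal left out (highest without horned 2), and without chip 2 RPL35 was at −0.117 and RPS26 at 0.221. RPL3L ran from −0.061 (without scurred 3) to 0.9 in scurred against horned and was at 0.161 in scurred against polled without chip 4. In the latter comparison, without chip 2, RPS6 was at 0.072, RPS27 at 0.144 and FAU at 0.229. By sex, with an animal left out, RPL4 ran from −1.457 to 0.172 and RPL14 from −0.040 to 0.354 (the ends nearest 0 without polled 2), and RPL36AL from −0.027 (without horned 2) to 0.324. Without chip 2, RPL14 was at −0.209 and RPL27A at −0.113. RPL22L1 by site was at 0.042 without polled 3 and −0.59 without scurred 2. Centring the members on 0 on each array, chosen after seeing the data, gave medians of 0.011, −0.007, −0.010, −0.013 and −0.014. The counts of members with 1 sign in every animal or a range over 1 log2 unit under other scalings were also added after seeing the data. With 5 residual degrees of freedom and 3 to 4 animals a group, the median SE of a member was 0.134 to 0.154 on chips 1 to 4.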

Other observations

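RPL27, a large subunit protein, had levels from 9.60 to 9.93 in horned 1, horned 3, polled 1, scurred 1 and scurred 3 and from 8.61 to 9.07 in the other 6 animals, and the control sites of polled 3 and scurred 2 were at 9.10 and 9.01. The split was noticed in this gene's own values and is given as a description. It was not particular to RPL27. The same 5 animals stood above the other 6 in 5 members (5.88%, against 1.97% of all probes tested). That count includes RPL27, which set the split, so the shares are no test of it. Beside RPL27 these were LOC510795, LOC614941, RPL14 and RPL8. They stood below the other 6 in 0 members (0%, against 0.916%). The 5 higher animals are all 3 of chip 1 and a pair of chip 3, and animal and chip cannot be told apart across chips. On chip 3, polled 3 stood at −0.60 against horned 3 in RPL27 while scurred 3 stood at 0.10.

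Some ribosomal genes lay outside the rule by name. RPSA (named LAMR1 in the files) stood at 0.01 in polled and −0.06 in scurred against horned animals, and a probe described as RPL13-like at 0.17 and −0.01. Neither passed. RACK1, a small subunit scaffold named GNB2L1 in the files, was not tested because its probe was not well above background in 3 animals.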
